A study of Mus musculus with 2 samples.

Results

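Cyclin-dependent kinase inhibitors and the retinoblastoma family were described in 2 subcutaneous mouse tumours through 10 genes: Cdkn1a, Cdkn1b, Cdkn1c, Cdkn2a, Cdkn2b, Cdkn2c, Cdkn2d, Rb1, Rbl1 and Rbl2. They were chosen by gene name and not by their values, out of 27962 names on the array. The tumours grew from RMS3, a mouse line labelled as PRMS, an abbreviation the labels leave unexplained, after injection of 1000000 cells in 200 µl of buffer under the skin of male C57BL/6J mice, and were taken after 2 weeks. No genotype, allele or host age is given. Total RNA of each tumour went to its own single-colour Agilent array, so the series is 1 group of 2 tumours, and it holds no control, normal tissue or cultured cells. The protocol speaks of metastatic tumours and the other labels of tumours by subcutaneous injection, and nothing says whether the tumours came from separate mice. Both grew from a single line, and bulk tissue includes host cells, so fewer cells of a type and less RNA per cell cannot be told apart. Each difference sets 1 tumour against 1, with no p-value, and is compared with the error of repeated spots and with all genes.

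The cell cycle passes from G1 into S phase when kinases paired with D and E cyclins phosphorylate the pocket proteins Rb1 (pRb), Rbl1 (p107) and Rbl2 (p130), which otherwise hold E2F transcription factors in check. The INK4 inhibitors bind Cdk4 and Cdk6, while the Cip/Kip inhibitors bind a wider range of cyclin-kinase complexes. In skeletal muscle and its precursors these proteins take part in the withdrawal from the cell cycle that goes with differentiation, and loss of Rb1 or of Cdkn2a is a known event in human and mouse tumours.

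All 10 genes were well above background in both tumours, against 69.2% of the 16063 genes with a known name measured on the same spots. None of the 10 was at least 2-fold apart between the tumours, where 4.69% of 11113 genes detected in both were. At that share a count of 0 among 10 genes does not set them apart. The furthest apart were the probes of Cdkn1b, which went opposite ways, followed by Rbl1 (-0.37), Cdkn1c (0.37) and 1 probe of Rbl2 (-0.37), whose sizes do not differ beyond the spot error. The 10 genes had a median difference of -0.02 (log2, tumour 2 minus tumour 1), beside 0.02 over all genes.

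Promoter windows are shown for the 3 members on which the later paragraphs dwell: Cdkn2a, which has alternative starts and a single probe whose place in the transcripts was not examined here, Cdkn1a, a classical p53 target, and Rbl1, the pocket protein gene furthest apart between the tumours. Each window holds the 250 bases before a RefSeq transcription start on GRCm38.p6, written 5′ to 3′ on the strand of the gene. Capitals mark a match to the E2F core, searched as TTTCCCGC, TTTCGCGC, TTTGCCGC and TTTGGCGC on both strands, or to the repeat unit of the p53 consensus.
Cdkn2a, upstream start, chr4:89294620-89294869, minus strand: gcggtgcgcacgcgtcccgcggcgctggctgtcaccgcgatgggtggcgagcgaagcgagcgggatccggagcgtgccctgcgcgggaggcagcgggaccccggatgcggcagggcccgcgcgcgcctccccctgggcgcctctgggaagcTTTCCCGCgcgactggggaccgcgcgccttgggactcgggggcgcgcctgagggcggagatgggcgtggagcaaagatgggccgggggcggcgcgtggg
Cdkn2a, downstream start, chr4:89282193-89282442, minus strand: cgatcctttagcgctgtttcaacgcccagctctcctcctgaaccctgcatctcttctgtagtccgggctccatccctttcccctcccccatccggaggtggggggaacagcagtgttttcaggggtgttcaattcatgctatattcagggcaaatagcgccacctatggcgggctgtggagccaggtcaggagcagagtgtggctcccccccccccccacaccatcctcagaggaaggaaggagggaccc
Cdkn1a, upstream start, chr17:29090729-29090978, plus strand: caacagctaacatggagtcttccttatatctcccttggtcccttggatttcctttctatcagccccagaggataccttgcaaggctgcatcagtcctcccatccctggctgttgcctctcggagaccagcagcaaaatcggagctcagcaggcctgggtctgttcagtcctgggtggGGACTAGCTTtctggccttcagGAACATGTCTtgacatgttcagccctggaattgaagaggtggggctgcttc
Rbl1, chr2:157204535-157204784, minus strand: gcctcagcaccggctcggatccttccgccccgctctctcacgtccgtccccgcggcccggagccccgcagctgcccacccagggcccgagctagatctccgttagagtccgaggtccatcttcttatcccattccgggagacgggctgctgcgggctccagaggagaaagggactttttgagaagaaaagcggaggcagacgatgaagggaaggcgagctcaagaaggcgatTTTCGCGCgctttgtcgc

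The starts of Cdkn2a lie 12427 bases apart. The upstream window holds 1 E2F core, TTTCCCGC, 99 to 92 bases before the start, and the downstream window holds none. In Rbl1 the core TTTCGCGC lies 18 to 11 bases before the start. The upstream window of Cdkn1a holds 2 p53 repeat units, GGACTAGCTT and GAACATGTCT, and its downstream window, not printed, holds none. The window of Cdkn2d, not printed either, holds 1 p53 unit, GGGCTTGCCT. Windows were found for 8 of the 10 genes (11 windows), and Rb1 and Cdkn1c had none. The E2F core was in 2 of the 11 windows and in 1.86% of all 32851 windows of this length, and the p53 unit was in 2 of the 11 and in 7.13% of all. A match describes the letters only, and no binding was measured in these tumours.

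Array 1 carried 1128 spots flagged as outliers by the scanner software, array 2 carried 69, and some unflagged spots beside the flags of array 1 had lost signal. Spots within 2 rows and columns of such a flag, or of 1 of the 11 spots with high local background on array 2, were therefore left out on both arrays, which kept 72.2% of spots. The 10 genes have 15 probes and 51 spots on each array, of which 40 spots of 14 probes were kept. Levels are log2 processed signals after subtraction of the 75th percentile of the kept spots on that array, and they are compared between tumours, never between probes. The lowest level called well above background was -5.78 on array 1 and -6.19 on array 2. Over 175 repeated probes a spot's difference between the arrays had a standard deviation (SD) of 0.23. This is the spot error used for genes with a single spot. It is pooled over probes whose own SDs differ, and is only a rough measure for any 1 spot. It comes from repeat spots of the same 2 arrays, so error shared by all spots of a probe on an array is not in it. The error between tumours was not measured. The repeated probes of the members had SDs of 0.04 (Cdkn2a), 0.07 (Cdkn1a), 0.09 (Rb1) and 0.23 (Cdkn1b).

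Among the Cip/Kip inhibitors, Cdkn1a (p21), which p53 induces and which halts the cycle in response to DNA damage, was measured on 1 probe with 7 kept spots. Its processed signal ran from 5180 over a median of 5540 to 6030 in tumour 1 and from 5535 over 5655 to 5720 in tumour 2. The raw ranges overlap, and on the level scale all 7 spots were higher in tumour 2, by 0.06 to 0.27. The levels were 2.48 and 2.64 (mean 2.56 ± 0.11, SD, n = 2). Their difference of 0.16 ± 0.07 (SD of 7 spots) was exceeded or met in size by 66.0% of all genes. The 3 spots left out on or near a flag read 2960, 14.7 and 55.8 on array 1, and on array 2 the same positions read 5449, 5488 and 5775. With all unflagged spots of the array in use the difference became 1.65, and Cdkn1a was then at least 2-fold apart, as were 8.79% of all genes.

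**Figure D1:**
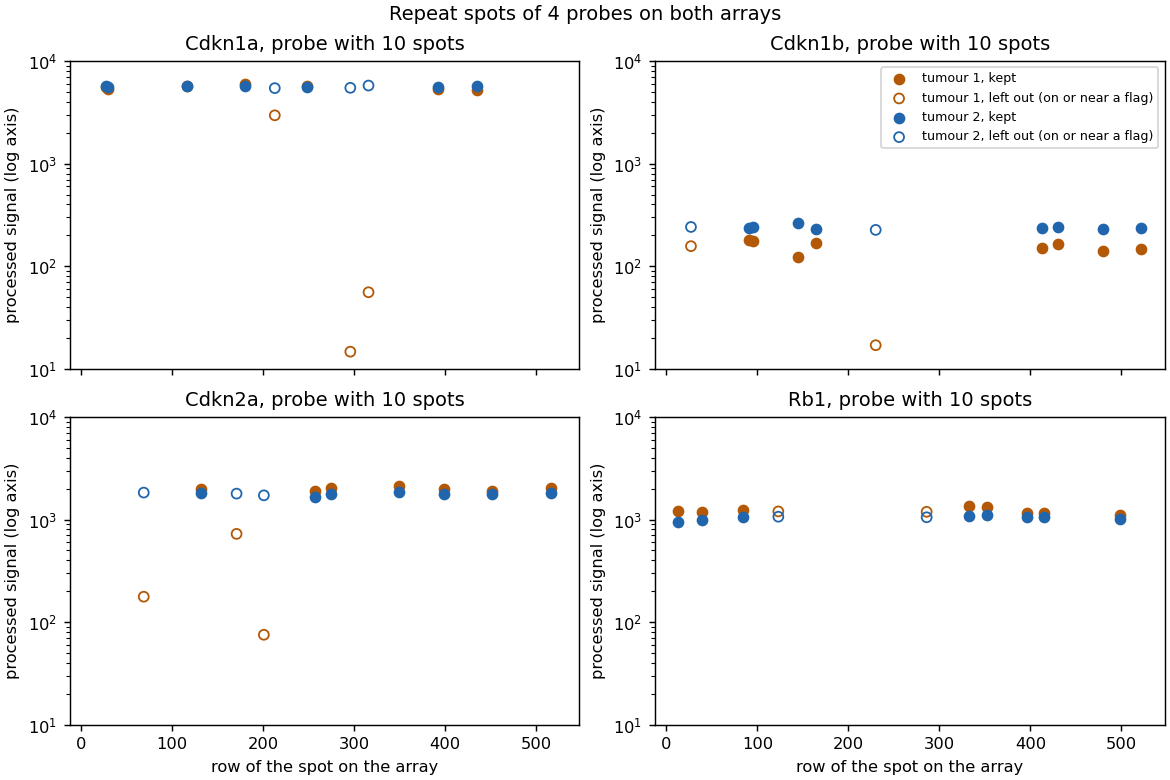
Processed signal (log axis, arbitrary units) against the row of the spot on the array, for the 4 probes printed 10 times, in tumour 1 (orange) and tumour 2 (blue); open circles are spots left out on or near a flag. Kept spots of each probe lie level along the array, whereas spots left out of Cdkn1a fall to 14.7 and those of Cdkn2a to 75.3 on array 1 only.

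Cdkn1b (p27), an inhibitor whose level is set largely by protein degradation, gave opposite results on its probes. The probe A_51_P169173, assigned to NM_009875, had 8 kept spots. They read 122 to 181 (median 156.5) in tumour 1 and 231 to 262 (median 238) in tumour 2. The ranges do not overlap, and all 8 spots were higher in tumour 2. The levels of -2.68 and -1.91 gave a difference of 0.77 ± 0.23 (SD of 8 spots), a 1.71-fold ratio. The dimmest spot on array 1, at 122, alone gave 1.25, and the other 7 gave 0.71 ± 0.13. That spot lies 3 positions from a flag, nearer than the other 7, and whether this touches it was not tested. The 2 spots left out near a flag read 157 and 17.0 on array 1 against 242 and 226 on array 2. Surrounding probes did not share the shift: the median difference of detected spots within 5 rows and columns of its spots was 0.02.

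The probe A_51_P146126, assigned to the cDNA clone AK169586, has a single spot. It read 3480 in tumour 1 and 2176 in tumour 2, levels of 1.81 and 1.27, a difference of -0.54 or 2.31 times the spot error. Surrounding detected spots had a median difference of 0.03. The third probe of Cdkn1b, A_52_P673863, read 3.71 and 19.6 on a spot near a flag, where array 1 was not well above background, and was left out.

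The measured probes of Cdkn1b thus lay 1.31 apart in their differences. Of 3553 genes with several detected probes, 5.52% had a spread at least as wide, and the median spread was 0.36. Under all 14 settings tried the repeated probe was higher in tumour 2, by 0.56 to 1.84. Under the 13 settings with a value the single-spot probe was higher in tumour 1, with differences of -0.99 to -0.52. Of the 175 repeated probes 9, including this one, were at least as far towards tumour 2. A value for the gene as a whole, 0.12 as the median of both probes, describes neither. Probe sequences were not used here, so the transcript parts they cover were not compared.

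Cdkn1c (p57), an imprinted inhibitor expressed from the maternal allele and active in muscle differentiation, has a single spot. It read 6290 in tumour 1 and 7360 in tumour 2, levels of 2.66 and 3.03. The difference of 0.37 was 1.59 times the spot error, and 34.5% of all genes were at least as far apart. The scanner software's own error on each of these signals was 10.0%, the same as on the spots of Cdkn2b, Cdkn2c and Cdkn2d, so it is not particular to this spot.

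**Figure D2:**
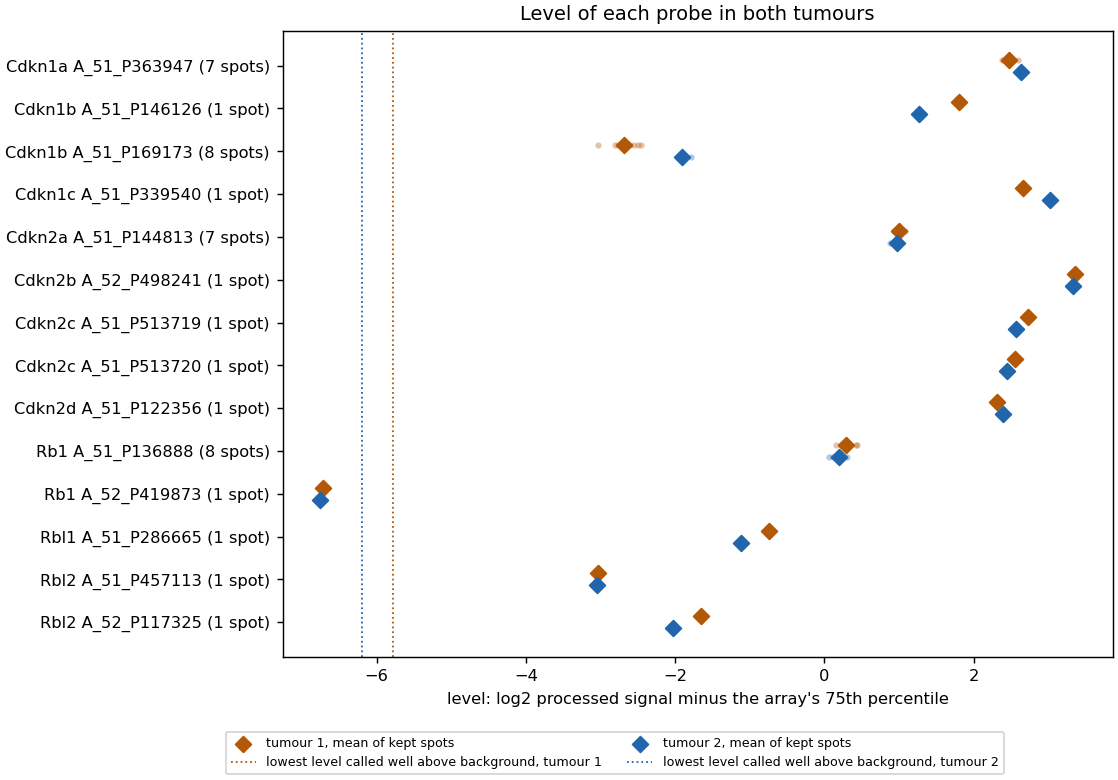
Level of each of the 14 measured probes (log2 units relative to the 75th percentile of the array) in tumour 1 (orange) and tumour 2 (blue); diamonds are means of kept spots, small points the spots, and dotted lines the lowest level called well above background on each array. Levels should be compared within a row only; 13 probes lie above both lines and the second Rb1 probe lies below them.

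The INK4 inhibitors differed little between the tumours. Cdkn2a encodes p16 and, from the upstream start shown above, the Mdm2-binding protein p19Arf, and its probe is assigned to NM_009877. The 7 spots away from flags ran from 1900 over 1980 to 2100 in tumour 1 and from 1653 over 1789 to 1838 in tumour 2. Raw signal was higher on array 1 at all 7 spots, and after scaling at 5 of 7. The levels were 1.00 and 0.98 (0.99 ± 0.01, SD, n = 2) with a difference of -0.02 ± 0.04 (SD of 7 spots), and 94.9% of all genes were at least as far apart. The 3 spots left out read 177, 725 and 75.3 on array 1 against 1832, 1789 and 1722 on array 2. With all unflagged spots the difference became 0.69 and turned towards tumour 2.

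Cdkn2b (p15), which lies next to Cdkn2a and is known as a TGF-beta response gene, read 10200 and 9076 on its single spot. Its levels of 3.36 and 3.33 differ by -0.03, far inside the spot error. Cdkn2c (p18), which restrains Cdk6 in differentiating muscle and lymphocytes, has 2 single-spot probes. One read 6620 and 5362 (difference -0.16), the other 5860 and 4944 (-0.10). The probes of Cdkn2c lay 0.06 apart and both within the spot error of 0. Cdkn2d (p19 of the INK4 group) read 4940 and 4754, levels of 2.31 and 2.40, and its difference of 0.09 was within the spot error too. Detected spots around it had a median difference of -0.19.

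The pocket protein genes measured slightly lower in tumour 2, and the single-spot probes of Rbl1 and Rbl2 by less than 2 times the spot error. Rb1, the retinoblastoma protein gene, had 8 kept spots on the probe A_51_P136888, from 1110 over 1195 to 1350 in tumour 1 and from 942 over 1052 to 1116 in tumour 2. The ranges overlap only from 1110 to 1116, and raw signal was higher on array 1 at all 8 spots. After scaling it was higher at 7 of 8. The levels were 0.29 and 0.20 with a difference of -0.09 ± 0.09 (SD of 8 spots), and 79.2% of all genes were at least as far apart. Spots in rows 13, 84 and 332 differed by -0.22, -0.10 and -0.18, where surrounding detected spots had medians of -0.22, -0.12 and -0.11. Those in rows 39 and 352 differed by -0.13 and -0.12, beside -0.0007 and -0.04. With only the lower rows of the array in use the difference was -0.03 (4 spots). The 2 spots of this probe that lay near a flag read 1200 and 1190 on array 1 and 1066 and 1052 on array 2, level with the kept spots. A second Rb1 probe, A_52_P419873, read 9.41 and 8.35, not well above background in either tumour.

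Rbl1 (p107), a pocket protein that is itself transcribed under E2F control in cycling cells, read 596 in tumour 1 and 418 in tumour 2 on its single spot. The levels of -0.74 and -1.11 gave a difference of -0.37, 1.60 times the spot error, with 34.2% of all genes at least as far apart. Detected spots around it had a median difference of -0.01. Rbl2 (p130), the pocket protein typical of resting cells, has 2 single-spot probes. A_51_P457113 read 121 and 110 with a difference of -0.00088, while A_52_P117325 read 316 and 222 with a difference of -0.37. Their spread of 0.37 was close to the median spread of 0.36 for genes with several probes, and the gene's value, their median, was -0.18.

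**Figure D3:**
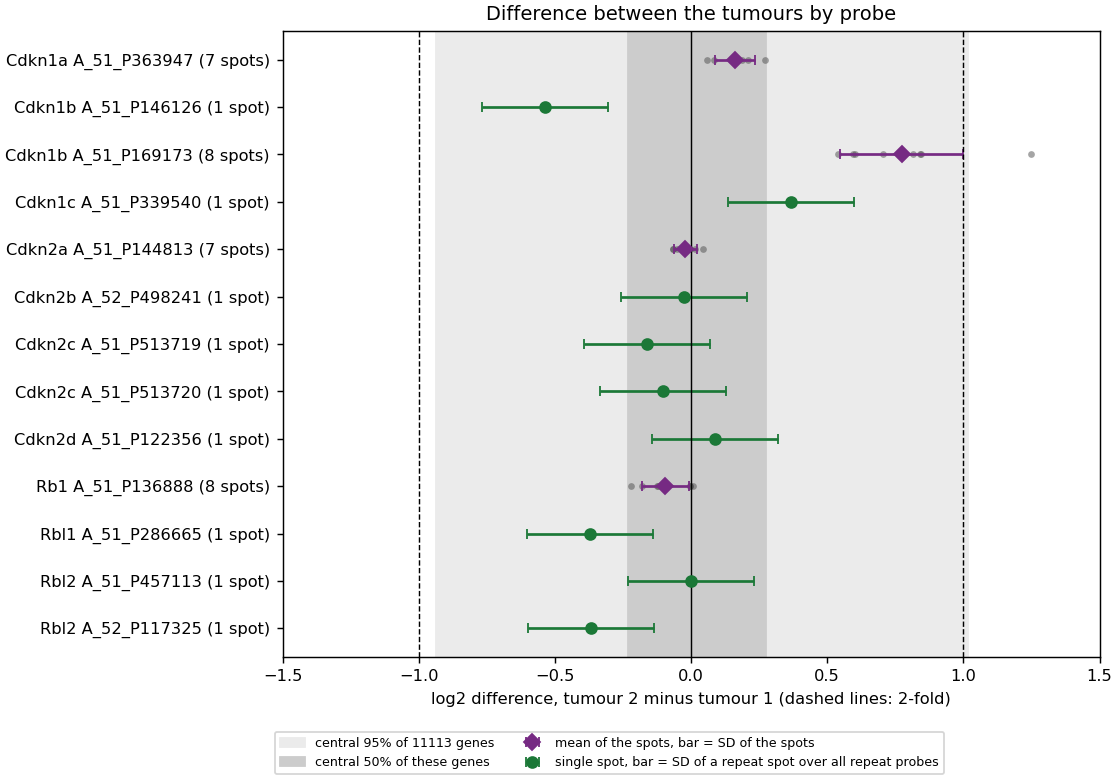
Difference between the tumours (log2, tumour 2 minus tumour 1) for the 13 probes detected in both; purple diamonds are means of repeated spots with their SD, green circles single spots with the spot error of 0.23, grey bands the central 50% and 95% of 11113 genes. The probes of Cdkn1b lie on opposite sides at 0.77 and -0.54, no mean reaches the dashed 2-fold lines, and 8 of the other 11 probes lie within the central 50%.

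The signs of these small differences depended in part on the processing. By group, Cdkn1a and Cdkn1c of the Cip/Kip genes were higher in tumour 2, while the sign of Cdkn1b (0.12) joins opposite probes. Of the INK4 genes 3 of 4, and of the pocket protein genes 3 of 3, were higher in tumour 1, beside 48.0% of all genes. Cdkn1b turned towards tumour 1 with its brightest probe alone (-0.54), with normexp, a model-based background correction, fitted without spots of high local background (-0.0028), and without scaling (-0.02). Loess scaling turned none of the 10 genes. With all unflagged spots, Cdkn2a turned towards tumour 2 and Cdkn2d towards tumour 1, beside a shift of -0.16 over all genes. Without scaling, when all genes shifted by -0.14, Cdkn2d (-0.06) turned towards tumour 1 as Cdkn1b did. Under normexp fitted on all spots, Cdkn1a, Cdkn1c and Cdkn2d turned towards tumour 1 and Rbl1 and Rbl2 towards tumour 2. That fit moved the median of all genes by 0.50 and placed 44.7% of them at least 2-fold apart, Rbl2 among them.

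Other genes of the pathway came from 9 lists with 78 genes, of which 68 had kept spots and 66 were detected in both tumours. Of these 28 were higher in tumour 1 and 38 in tumour 2, with a median of 0.09, and 2 (3.03%) were at least 2-fold apart, both towards tumour 2, where 2.62% of all genes lay that far. With all unflagged spots the counts of several lists shifted towards tumour 1.

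D cyclins and their partner kinases were detected in 5 of 5 cases, none 2-fold apart. The kinases that the INK4 inhibitors bind, Cdk4 and Cdk6, differed by 0.007 and 0.48. Ccnd1, the cyclin D1 gene, lay at 3.26 in tumour 1 and 3.34 in tumour 2, and Ccnd3 at 1.50 and 1.47. Ccnd2 stood out in this list with 0.65 and 1.52: both of its kept probes were higher in tumour 2, at 1860 and 2795 (0.73) and at 1310 and 2388 (1.01), while surrounding spots lay at -0.06 and 0.01. E, A and B cyclins and their kinases were detected in 7 of 8 measured cases with a median of 0.17, Ccne1 at -0.81 and -0.82 and Ccne2 at -1.78 and -1.23. Ccna2 had no spot away from flags.

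E2F and DP factors, the transcription factors that the pocket proteins bind, were detected in 8 of 8 measured cases, 4 higher in each tumour, with a median of 0.02. E2f1 differed by 0.32, E2f2 by -0.75 and E2f3 by 0.12. Of the 13 measured E2F target genes of S phase 12 were detected, 5 higher in tumour 1 and 7 in tumour 2, with a median of 0.15. Pcna, the replication clamp, differed by -0.27, and the helicase subunits Mcm2 and Mcm3 by 0.25 and 0.49.

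Mybl2 (B-Myb), an E2F target that joins the MuvB core in S phase, lay far from the others. Its single spot read 74.9 in tumour 1 and 469 in tumour 2, which is 6.91-fold or 2.79 on the log2 scale, and 37 detected spots around it had a median of -0.16. The spot lies 3 positions from the nearest flag of array 1, and no second spot is there to check it. The left-out spots of Cdkn1a and Cdkn2a at 1 or 2 positions from a flag had lost signal on array 1, while those of Rb1 at 2 positions had not, and whether this touches the Mybl2 spot was not tested. Of the MuvB core, Lin9 differed by -0.11, Lin37 by -0.23 and Lin52 by -0.06, and 4 of the 7 genes of the list were higher in tumour 1.

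Ubiquitin ligase subunits and cofactors, most from complexes that mark Cip/Kip inhibitors for degradation, were detected in 8 of 8 measured cases. Of these, 4 were higher in each tumour. Skp2, the F-box protein that recognises p27, had levels of -0.34 and -0.90, with a difference of -0.56, and Cks1b, its cofactor, and Cks2 had no spot away from flags. All 12 regulators of the Cdkn2a and Cdkn2b locus were detected, 6 higher in each tumour, with a median of 0.04. Its first 3 genes, Polycomb genes that repress the locus, were higher in tumour 2, Bmi1 by 0.19, Cbx7 by 0.13 and Ezh2 by 0.32. Later genes of the list went both ways, with Suz12 at 0.38, Eed at -0.01 and Kdm2b at -0.18. With all unflagged spots Bmi1 lay at -0.22, Cbx7 at -0.07 and Ezh2 at 0.12.

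The p53 axis was detected in 4 of 4 cases, each higher in tumour 2, though only 2 of 4 with all unflagged spots. Trp53 differed by 0.21 and Mdm4 by 0.06. Mdm2, the ligase that p19Arf inhibits and p53 induces, read 396 to 500 on its 8 kept spots in tumour 1 and 700 to 860 in tumour 2. The spot ranges do not overlap, and the difference was 0.94, just under 2-fold, beside 0.16 for Cdkn1a, another p53 target. Among chromosome neighbours, 4 of the 5 listed genes lie near Cdkn1c. Phlda2 differed by 0.52 and Kcnq1 by -0.23. Slc22a18 differed by 1.56 (2.95-fold) on 1 dim spot, at 23.0 and 61.5, 3 positions from a flag. Mtap, next to Cdkn2a and Cdkn2b, had no spot away from flags.

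**Figure D4:**
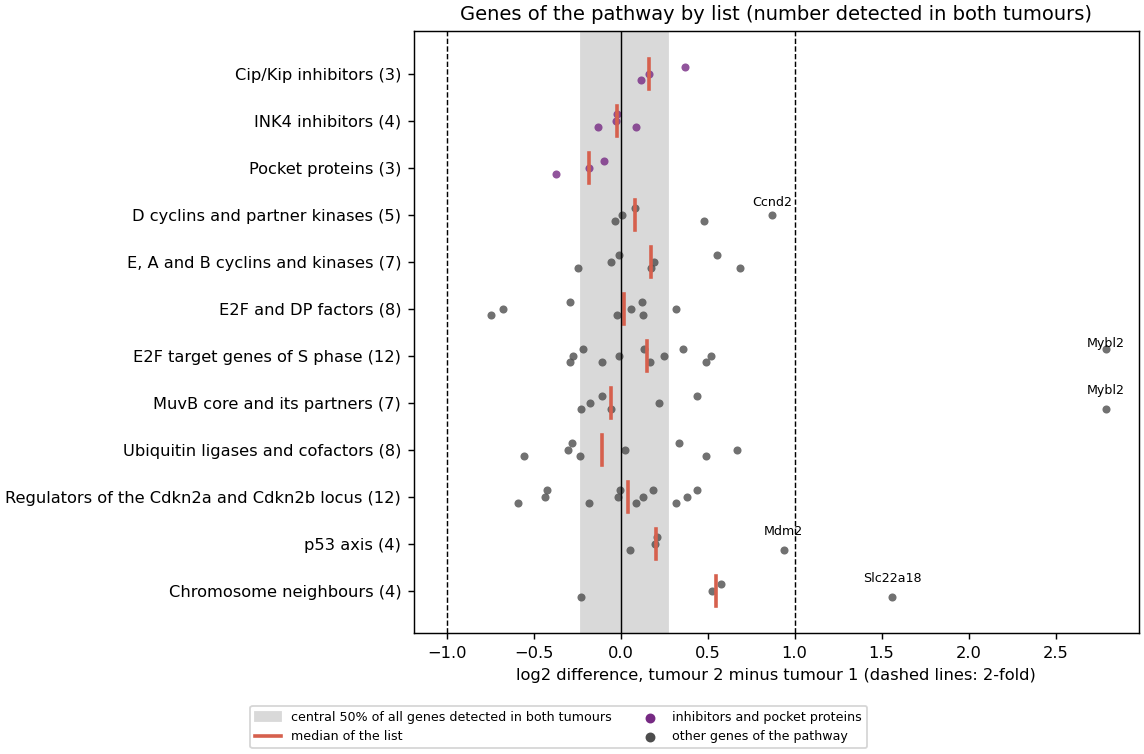
Difference between the tumours (log2, tumour 2 minus tumour 1) of each gene detected in both, by list, with the number of genes in brackets; red bars are list medians and the grey band the central 50% of all genes. Mybl2, shown in both lists that hold it, and Slc22a18 lie beyond the dashed 2-fold line, and Mdm2 and Ccnd2 lie below it. By gene the inhibitors and pocket proteins lie within 0.37 of 0, where Cdkn1b is the median of opposite probes at 0.77 and -0.54.

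Markers of other cell types also differed between the tumours. Their levels are given per list as the log2 of the summed linear levels, a sum that mixes probes and follows the brightest marker, beside the median difference of the single markers. Skeletal muscle markers were detected in 7 of 8 measured cases, with Myf5 below background. Their summed level was 2.30 in tumour 1 and 3.22 in tumour 2, carried by Myh8 (2.02 and 2.99). Their median difference was 0.50, with Des at 1.24, Myh3 at 1.07, Myog at 0.13, Myf6 at -0.48 and Myod1 at -0.35. Myod1 was dim, with levels of -5.24 and -5.59. Of 5 measured fibroblast markers 5 were detected and all 5 were lower in tumour 2, with a median of -0.44, Dcn at -1.12 and Mfap5 at -1.95. Their summed level of 6.56 and 6.44 was carried by Col1a2 (6.35 and 6.29). Mfap5 has 1 kept spot and was dim, at -3.36 in tumour 1 and -5.31 in tumour 2. The lowest level called well above background in tumour 2 was -6.19. Keratinocyte markers were detected in 3 of 5 cases with summed levels of -3.02 and 0.01, where Krt5 differed by 3.55 and Krt14 by 3.64 and Krt1 by -0.09. Krt5 and Krt14 have 1 kept spot each, at -5.21 and -4.26 in tumour 1. The lowest level called well above background there was -5.78. The 6 endothelial markers had summed levels of 2.23 and 1.72 and a median of -0.35, and 4 of 5 macrophage markers 2.89 and 2.83 and a median of -0.04. Of 5 T cell markers 1 was detected, Cd3e, and Cd4 and Cd8a were below background. The part of these cell types in the differences of the 10 genes was not tested.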

How the data were processed

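Each of the 2 tumours had 1 single-colour array, both on 1 slide, so slide could not be a block. The deposited intensity values are processed signals of Agilent Feature Extraction, release 9.1.3.1 in the deposited headers and 8 in the submitters' processing notes, background-subtracted and detrended within the array, per the file headers. Array 1 carries 3 significant digits. Gene names came from the file of tumour 2, and the genome build was not stated in those sources.

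Kept were non-control spots without an outlier flag and more than 2 rows and columns from a flag of array 1 or a spot of array 2 with local background above 100. Detection required at least 50% of a probe's kept spots to be well above background. A gene's difference is the median over probes detected on both arrays, and no test was run. The members, lists and spot rule were chosen with earlier results of these data known. Named are all members and, of the pathway lists, the first 3 genes of each and those at least 2-fold apart. Cdk4, Cdk6, Suz12, Eed and Kdm2b were named besides, after their values were seen. Cell type markers stand outside that rule, and those named were chosen after their values were seen. Alternatives were 3 spot rules, 2 normexp corrections (offset 50), 4 scalings (quantile, loess with span 0.3, median of detected probes, none), 3 detection rules, the brightest probe, and leaving out each tumour. Promoter windows came from RefSeq (GRCm38.p6). Scripts were tested on simulated data. R 4.3.3, limma 3.58.1 and Python 3.11.15 were used.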

Additional observations from a re-analysis of the deposited data

How the results depend on the processing

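The 10 genes were above background in both tumours under every setting with a call, except that the lower rows of the array hold spots of 7 genes, all detected. Leaving out either tumour also gave 10, which follows from detection in both and is no further check. No gene was 2-fold apart except under 2 settings: with all unflagged spots 1 was (Cdkn1a, 1.65), and under normexp fitted on all spots 1 was (Rbl2, 1.64). That normexp fit also moved the median difference from -0.02 to -0.52, and its lowest corrected signal was 66.1 on array 2 against 50.2 on array 1. Fitted without spots of high local background it gave a median of -0.08 and 50.2 on both arrays. Of 127 differences of single genes under the 13 alternatives, 114 moved by less than the spot error of 0.23. The other 13 moved by more, 9 of these under normexp on all spots. Many of the 114 equal the main value exactly, because the detection rules and the brightest probe left most genes on the same spots. The count therefore overstates how stable the differences are. A detection count without a filter, a slide block and differences without a tumour could not be formed. No paired analysis was possible because the labels give 1 group. Precision is limited by the number of arrays, and for 6 of the 10 genes by a single spot or by single-spot probes.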
